A study of Mus musculus with 16 samples.

Results

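The genes of alternative activation, the program that interleukin-4 and interleukin-13 start in macrophages, were compared in airway macrophages of mice. The mice had or lacked Toll-like receptor 3 (TLR3), an endosomal sensor of double-stranded RNA, and were controls or had bacterial pneumonia. The set was fixed by symbol and holds 10 of the 23159 gene symbols in the count table: the receptor chain Il4ra, the transcription factors Klf4 and Irf4, and the products Pdcd1lg2, Arg1, Retnla, Mgl2, Clec10a, Folr2 and F13a1. After a filter on low counts 8 of the 10 were tested. Il4ra, Klf4, Pdcd1lg2, Arg1, Mgl2, Irf4 and F13a1 could be judged, Clec10a was low, with a mean under 1 CPM (a library's counts for a gene scaled to a common total) in every group, and Retnla and Folr2 were too low to judge. Judged means only that a gene passed the filter and averaged at least 1 CPM in some group. Mgl2 reached that level only in the TLR3-KO groups.

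Bulk RNA came from macrophages isolated from lavage of the airways, with 4 libraries in each of 4 groups. The groups were TLR3-KO mice after pneumonia, called injured in the sample titles, TLR3-KO controls, wild-type (WT) mice after pneumonia and WT controls. Per the labels' protocols, Klebsiella pneumoniae, at 500 CFU per 30 µl, or saline alone was delivered deep into the throat, and the controls carry the treatment label none. Strain, age, the time between inoculation and lavage, and the kind of knockout allele are not named in the labels. Nor do they state that every library is 1 separate mouse, so the p-values cover the spread between these libraries, which may be technical. In such bulk samples, fewer cells of a type and less RNA per cell cannot be told apart.

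As background, interleukin-4 and interleukin-13 bind receptors that share the chain encoded by Il4ra, and Janus kinases on the receptor then phosphorylate STAT6, which enters the nucleus and binds DNA. Klf4 and Irf4 encode transcription factors that take part in the response downstream of STAT6. Mouse macrophages that respond make arginase, which turns arginine into ornithine and urea, together with secreted RELM-alpha, galactose-binding lectins and PD-L2, a ligand that restrains T cells. Alveolar macrophages at rest already express some genes of this program, among them those of the chitinase-like protein Ym1 and the mannose receptor.

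STAT6 binds inverted repeats of TTC and GAA, so the promoters were searched on both strands for TTC and GAA with any 4 bases between them, and with any 3 bases between them, the spacing that other STAT proteins also bind, from 250 bases before to 50 bases after each transcription start. RefSeq promoters (GRCm38.p6) were at hand for 8 of the 10 genes. The motif with 4 bases was found in the windows of Retnla and Pdcd1lg2 and in none of the windows of the other 6 genes, and the motif with 3 bases in no window of the 8. Of 32851 promoter windows of the same length, 6.95% hold the motif with 4 bases and 8.3% that with 3. Matches of the 2 motifs cannot begin at the same base, and Retnla and Pdcd1lg2 hold 1 match each, so none overlap. The windows that hold a match are shown on the plus strand, 5′ to 3′, with the match in capitals: Retnla, chr16:48842359-48842658, match 145 bases before the start, and Pdcd1lg2, chr19:29410669-29410968, match 82 bases before it. A match describes the letters and is not evidence of binding.
Retnla: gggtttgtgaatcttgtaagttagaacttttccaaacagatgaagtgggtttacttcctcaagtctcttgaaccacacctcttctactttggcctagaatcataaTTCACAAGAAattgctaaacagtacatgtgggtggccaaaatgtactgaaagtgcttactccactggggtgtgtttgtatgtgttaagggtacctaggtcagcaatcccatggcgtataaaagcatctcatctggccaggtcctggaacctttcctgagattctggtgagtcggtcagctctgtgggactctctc
Pdcd1lg2: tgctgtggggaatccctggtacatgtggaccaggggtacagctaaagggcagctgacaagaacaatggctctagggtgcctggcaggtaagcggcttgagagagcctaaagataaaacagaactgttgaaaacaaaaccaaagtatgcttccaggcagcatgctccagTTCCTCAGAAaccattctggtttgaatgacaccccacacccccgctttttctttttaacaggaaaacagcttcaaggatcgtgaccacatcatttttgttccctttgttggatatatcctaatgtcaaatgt

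Total counts lay between 29667102 and 59640251 per library. Tlr3 followed the labels, at 0.491 ± 0.135 CPM in TLR3-KO injured against 3.44 ± 0.85 CPM in WT injured libraries, and 0.529 ± 0.211 CPM in TLR3-KO control against 3.48 ± 1.23 CPM in WT control libraries (SD, n = 4 each), with no overlap. All 18 alveolar macrophage markers in the table averaged at least 1 CPM, and their sum, 54.6% of it from Chi3l3 (the gene of Ym1), was 28000 to 37300 CPM in every library. Xist, a female-specific RNA, reached 20.3 to 42.3 CPM in TLR3-KO controls 1 to 3 and at most 0.23 CPM in the other 13 libraries, whereas the mice are called male in the title of the series. Control libraries with the same number departed together from their group means in both genotypes (correlations 0.60 to 0.63). Where it moved them, values are therefore also given for controls 1 and 2, for controls 3 and 4, or with TLR3-KO control 4, the control of that genotype without Xist, as its only control.

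Per kilobase of exon, the mean level over all 16 libraries differed widely among the 10 genes. Il4ra averaged 18.5 CPM per kb, Klf4 9.81 and Pdcd1lg2 4.13 CPM per kb. Il4ra lay above Klf4 in 15 libraries, and Klf4 above Pdcd1lg2 in all 16. The other genes were below 1 CPM per kb on average. Arg1 had 0.702, Retnla 0.598, Mgl2 0.552, Irf4 0.328, F13a1 0.18, Clec10a 0.155 and Folr2 0.0658 CPM per kb. Among these the order was not fixed: Retnla exceeded Mgl2 in only 3 libraries, and F13a1 exceeded Clec10a in 9. The mean of Retnla rests on TLR3-KO controls 1 and 4.

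Il4ra, on chromosome 7 (125552120 to 125579474, plus strand, mm10), encodes the signalling chain of the interleukin-4 receptor. It had 136, 149, 142 and 126 CPM in the 4 TLR3-KO injured libraries, against 93.3, 102, 91.4 and 74.0 CPM in TLR3-KO controls. All 4 injured libraries lay above all 4 controls. In WT the values were 101, 113, 139 and 143 CPM in injured libraries and 99.5, 94.2, 77.1 and 92.4 CPM in controls, again with no overlap, though the lowest injured library was close to the highest control. Averaged over both genotypes, Il4ra rose 1.35-fold after pneumonia (log2 fold change 0.44, SE 0.10, edgeR adjusted p = 0.0368). This was the only call among the 8 genes tested. Within TLR3-KO the log2 fold change was 0.54 (SE 0.15, adjusted p = 0.0666) and within WT 0.33 (SE 0.14, adjusted p = 0.431). The difference between these responses was 0.21 on the log2 scale (SE 0.20, adjusted p = 0.555). TLR3-KO and WT libraries overlapped both after pneumonia (0.13, SE 0.14) and in controls (-0.08, SE 0.14).

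The averaged call for Il4ra was near the threshold. With the replicate number as a block it had a log2 fold change of 0.45 and an adjusted p of 0.0569. Against controls 1 and 2 only, the log2 fold change was 0.28 (adjusted p = 0.0688), against controls 3 and 4 only 0.62 (adjusted p = 0.00252), and with TLR3-KO control 4 as the only control of its genotype 0.64 (adjusted p = 0.0522). Leaving out each library in turn gave log2 fold changes of 0.38 to 0.48 and adjusted p of 0.0206 to 0.0945, and the call was kept in 4 of 16 such fits, those without WT control 1, WT injured 1, TLR3-KO control 1 or TLR3-KO control 2. The antisense gene Gm44876 overlaps Il4ra, and whether counting used strand is not given in the sources used here.

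Klf4, on chromosome 4 (55527143 to 55532466, minus strand), encodes a zinc-finger transcription factor. It had 39.2, 44.5, 39.1 and 34.5 CPM in TLR3-KO injured libraries, against 28.8, 18.0, 17.0 and 39.6 CPM in WT injured libraries. TLR3-KO controls had 50.3, 44.9, 20.3 and 24.3 CPM, against 22.4, 23.0, 16.9 and 15.5 CPM in WT controls. The genotypes overlapped in both states, because WT injured library 4 was among the TLR3-KO values and TLR3-KO control 3 among the WT ones. The log2 fold change of TLR3-KO against WT was 0.57 after pneumonia (SE 0.32, adjusted p = 0.383), 0.78 in controls (SE 0.32, adjusted p = 0.204) and 0.67 averaged over states (SE 0.23, adjusted p = 0.129). None of these passed the threshold. With controls 1 and 2 only, the averaged value was 0.77 (adjusted p = 0.0427), with controls 3 and 4 only 0.47 (adjusted p = 0.313), and with TLR3-KO control 4 as the only control of its genotype 0.34 (adjusted p = 0.588). Between injured libraries and controls the log2 fold change was 0.08 in TLR3-KO (SE 0.32) and 0.29 in WT (SE 0.32). In TLR3-KO it was -0.39 against controls 1 and 2 and 0.81 against controls 3 and 4, so its direction turned with the controls used.

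Irf4, on chromosome 13 (30749226 to 30766976, plus strand), encodes an interferon regulatory factor used by macrophages, dendritic cells and lymphocytes. Its levels were low, at 2.19, 1.54, 2.36 and 1.46 CPM in TLR3-KO injured libraries, against 2.2, 1.83, 0.738 and 2.28 CPM in TLR3-KO controls. WT libraries had 1.03, 1.88, 1.44 and 1.89 CPM after pneumonia and 1.14, 1.37, 0.369 and 2.00 CPM in controls. Control 3 was the lowest library in both genotypes, and all groups overlapped. In the 4 comparisons of single groups the log2 fold changes lay between 0.03 and 0.47, with SE of 0.41 to 0.42, and none passed the test.

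**Figure D1:**
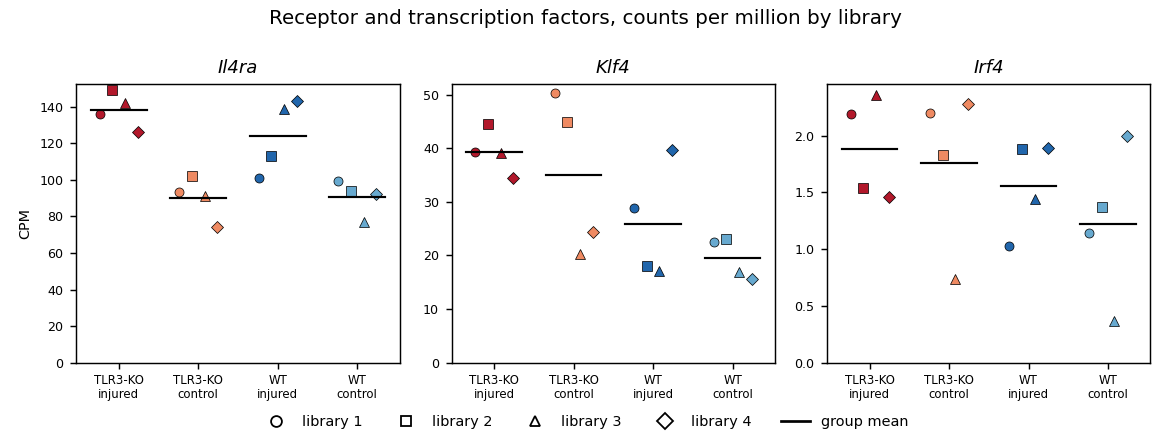
CPM of Il4ra, Klf4 and Irf4 in each library (y axis, linear, from 0) for the 4 groups (x axis), with symbols for library number and bars for the group mean. Il4ra separates injured libraries from controls in each genotype, at 126 CPM and more against at most 102 CPM in TLR3-KO, whereas the groups of Klf4 and Irf4 overlap.

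Pdcd1lg2, on chromosome 19 (29410919 to 29471161, plus strand), encodes PD-L2, the ligand of PD-1 whose promoter is shown above. It had 6.42, 6.0, 5.83 and 7.72 CPM in TLR3-KO injured libraries, against 8.91, 8.44, 8.56 and 13.2 CPM in TLR3-KO controls. Every injured library was below every control in this genotype. In WT the levels were 11, 9.03, 9.96 and 6.05 CPM in injured libraries and 6.46, 6.42, 6.84 and 8.66 CPM in controls, so 3 injured libraries exceeded all controls and the remaining injured library was below all of them. The log2 fold change was -0.65 in TLR3-KO (SE 0.18, adjusted p = 0.0711) and 0.24 in WT (SE 0.18, adjusted p = 0.634). The difference between the responses was -0.88 on the log2 scale (SE 0.25), with an adjusted p of 0.235 over all genes tested, so it did not pass. The difference was -0.83 with controls 1 and 2 only, -0.92 with controls 3 and 4 only and -1.21 with TLR3-KO control 4 as the only control of its genotype, where the TLR3-KO response was -0.98, and none of these passed.

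TLR3-KO against WT, Pdcd1lg2 had a log2 fold change of -0.50 after pneumonia (SE 0.18, adjusted p = 0.211) and 0.39 in controls (SE 0.18, adjusted p = 0.239). Without WT injured library 4 the value after pneumonia was -0.64 (adjusted p = 0.0377). DESeq2 called the TLR3-KO pneumonia contrast (log2 fold change -0.65, adjusted p = 0.0165), and edgeR did so without TLR3-KO control 2 or with controls 3 and 4 only (-0.75, adjusted p = 0.0256), but not with controls 1 and 2 only (-0.53, adjusted p = 0.204). The antisense gene A930007I19Rik overlaps Pdcd1lg2, so its reads cannot be set apart without strand.

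Arg1, on chromosome 10 (24915221 to 24927484, minus strand), encodes arginase. It had 1.48, 1.04, 0.640 and 2.32 CPM in TLR3-KO injured libraries, against 0.545, 1.60, 2.34 and 7.57 CPM in TLR3-KO controls. WT libraries had 0.983, 1.13, 1.60 and 0.567 CPM after pneumonia and 0.369, 0.434, 1.11 and 1.29 CPM in controls. TLR3-KO control 4, with 329 reads, was 3.23 times the next library, and all groups overlapped. The log2 fold change was -1.14 for pneumonia in TLR3-KO (SE 0.61, adjusted p = 0.257), and 1.83 for TLR3-KO against WT controls (SE 0.63, adjusted p = 0.139). Without TLR3-KO control 4 these values were -0.20 (adjusted p = 0.864) and 0.89 (adjusted p = 0.416). The direction of the TLR3-KO response turned with the controls used, at 0.26 against controls 1 and 2 only (adjusted p = 0.823) and -1.83 against controls 3 and 4 only (adjusted p = 0.0162). DESeq2 called the genotype contrast in controls (1.80, adjusted p = 0.0451).

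Retnla, on chromosome 16 (48842551 to 48844461, plus strand), encodes RELM-alpha, a secreted protein induced through STAT6. It was counted at 2, 7, 2 and 2 reads in TLR3-KO injured libraries, against 49, 0, 8 and 154 reads in TLR3-KO controls. WT injured libraries had 2, 7, 2 and 1 reads and WT controls 0, 5, 5 and 0. TLR3-KO controls 4 and 1 stood out, at 3.54 CPM (95% exact Poisson interval 3.00 to 4.15) and 1.16 CPM (0.859 to 1.54), whereas TLR3-KO control 2 had no read. For that library the exact Poisson interval reaches 0.0776 CPM, and a limit of 3 counts for 0 reads is 0.0631 CPM. Within that group the libraries thus differed by far more than counting error, and no group difference can be judged. No 50-base window of Retnla is shared with the related neutrophil gene Retnlg (0 of 550).

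Mgl2 and Clec10a, which lie near each other on chromosome 11 (70130329 to 70137550 and 70156197 to 70170834, both plus strand), encode the mouse galactose-type lectins MGL2 and MGL1. They share 270 windows of 50 bases, 12.2% of those of Mgl2 and 8.49% of those of Clec10a, so reads there are uncertain in their assignment. Mgl2 had 1.25, 1.48, 1.08 and 0.603 CPM in TLR3-KO injured libraries, against 1.99, 1.66, 2.83 and 1.01 CPM in TLR3-KO controls. In WT it had 0.724, 0.552, 0.914 and 0.794 CPM after pneumonia and 1.43, 1.12, 0.542 and 0.521 CPM in controls. TLR3-KO control 3 was the highest library, and the groups overlapped in every comparison. The log2 fold change for pneumonia was -0.84 in TLR3-KO (SE 0.40, adjusted p = 0.214) and -0.42 in WT (SE 0.41, adjusted p = 0.729), and averaged over genotypes -0.63 (SE 0.29, adjusted p = 0.285). Against controls 1 and 2 only, the averaged value was -0.89 (adjusted p = 0.028), and against controls 3 and 4 only -0.19 (adjusted p = 0.69). For TLR3-KO against WT, Mgl2 had 0.53 after pneumonia (SE 0.41, edgeR adjusted p = 0.524) and 0.95 in controls (SE 0.40, adjusted p = 0.212). Averaged over states it had 0.74 (SE 0.29, adjusted p = 0.184). With TLR3-KO control 4 as the only control of its genotype, the value in controls was -0.06.

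Clec10a stayed under 1 CPM in every library. It had 0.376, 0.825, 0.438 and 0.510 CPM in TLR3-KO injured libraries, against 0.466, 0.580, 0.388 and 0.473 CPM in WT injured libraries. TLR3-KO controls had 0.664, 0.526, 0.358 and 0.598 CPM, against 0.201, 0.114, 0.148 and 0.521 CPM in WT controls, of which library 4 lay among the TLR3-KO values. The 3 lowest of all libraries were thus WT controls, with 5 to 12 reads each. The log2 fold change of TLR3-KO against WT was 0.15 after pneumonia (SE 0.39, adjusted p = 0.868) and 1.09 in controls (SE 0.41, adjusted p = 0.168), and that of pneumonia in WT was 0.88 (SE 0.41, adjusted p = 0.46). None passed the test. The WT value was 1.36 against controls 1 and 2 only and 0.49 against controls 3 and 4 only.

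Folr2, on chromosome 7 (101839988 to 101857194, minus strand), encodes folate receptor beta, a protein of resident tissue macrophages. It was counted at 2, 2, 1 and 3 reads in TLR3-KO injured libraries, against 4, 6, 29 and 5 reads in TLR3-KO controls, and at 5, 0, 1 and 2 reads in WT injured libraries, against 3, 2, 6 and 2 reads in WT controls. TLR3-KO control 3 alone exceeded 6 reads. The antisense gene Gm10602 and the pseudogene Gm45319 overlap it. Injured libraries and controls did not overlap in TLR3-KO, but at 1 to 3 against 4 to 29 reads the gene was too low to judge.

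F13a1, on chromosome 13 (36867178 to 37050244, minus strand), encodes the A subunit of coagulation factor XIII, which monocytes and macrophages also make. It had 1.08, 1.42, 1.35 and 0.835 CPM in TLR3-KO injured libraries, against 0.948, 0.568, 0.759 and 1.36 CPM in TLR3-KO controls. WT injured libraries spread most, at 0.0259, 4.25, 0.914 and 2.00 CPM, from 1 to 154 reads, against 1.64, 0.297, 0.665 and 1.32 CPM in WT controls. The lowest and the highest library of the series were thus in 1 group. Log2 fold changes were 0.31 for pneumonia in TLR3-KO and 0.75 in WT (SE 0.74 each), with no call. Without WT injured library 2 the WT value was -0.11, so its direction rests on that library. Gm49144 and Gm30489 overlap F13a1 on the opposite strand.

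**Figure D2:**
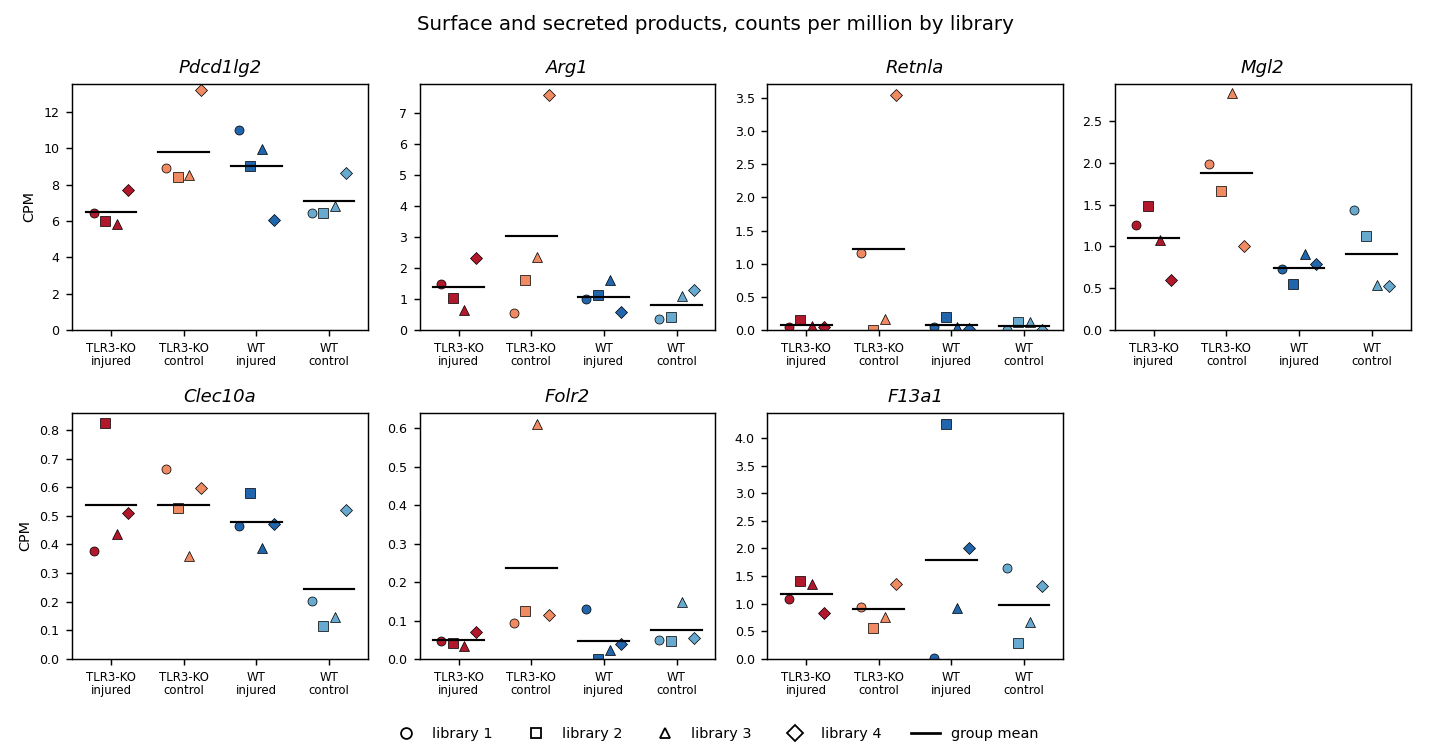
CPM of the 7 product genes in each library (y axes, linear, from 0, with a scale for each gene) for the 4 groups (x axis), with symbols for library number and bars for the group mean. TLR3-KO control 4 is the highest library for Pdcd1lg2 (13.2 CPM), Arg1 (7.57 CPM) and Retnla (3.54 CPM), and TLR3-KO control 3 for Mgl2 (2.83 CPM) and Folr2 (0.611 CPM).

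Over the 16 libraries, 6 of the 10 genes had their highest value in a TLR3-KO control, 3 in a TLR3-KO injured library and 1 in a WT injured library, while none had it in a WT control. The share over all genes was not computed, so this count is a description only. Retnla and Folr2, among the 6, were too low to judge. TLR3-KO control 4 was the highest for Pdcd1lg2, Arg1 and Retnla. Of 34 further genes linked to alternative activation, described later, it was the highest library for 6 (Alox15, Ccl22, Ccl24, Ear11, Myc and Tfec) and the lowest for 1, whereas WT control 1 was the highest for 7. Ear11 and Alox15 were looked at more closely after these values were seen. Ear11, listed under its other name Rnase2a, had 2.58 CPM there against 0 to 0.853 CPM in the other 15 libraries. Alox15, the gene of a lipoxygenase induced by interleukin-4, had 1.68 CPM against 0.0337 to 0.485 CPM. At 0.22 CPM over all libraries, Alox15 was removed by the filter and not tested. Mrc1, in contrast, had 383 CPM in TLR3-KO control 4 against 266 to 829 CPM in the whole series, and Il4ra its lowest value of the series, 74.0 CPM.

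Pneumonia within TLR3-KO gave no call among the 8 genes tested, against 1.54% of the 12455 genes tested (192 genes, adjusted p under 0.05). Groups did not overlap for 2 of the 8, Il4ra and Pdcd1lg2, against 14.3% of all genes. Within WT the count was again 0, against 0.0161% of all genes (2 genes), and Il4ra alone had groups without overlap, against 4.51%. Averaged over genotypes, 1 of 8 was called, against 2.34% of all genes (292 genes). Xist was high in TLR3-KO controls 1 to 3 and in no TLR3-KO injured library. Pneumonia in TLR3-KO and the Xist difference thus cannot be told apart. The average over genotypes and the difference of the pneumonia responses use the same controls and share this limit. The median log2 fold change of the 8 was -0.01 in TLR3-KO, equal to the median of all genes, and 0.31 in WT, where all genes had 0.01. The calls over all genes moved with single libraries: those for pneumonia in TLR3-KO lay between 0 (without TLR3-KO injured 3) and 1248 (without TLR3-KO control 2), and were 11 with the replicate block.

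TLR3-KO against WT gave no call among the 8 genes after pneumonia, against 0.618% of all genes, and none in controls, against 0.699%. No gene of the 8 had genotypes without overlap, against 12.3% of all genes after pneumonia and 8.13% in controls. Between same-numbered controls, a comparison added after the data were seen, TLR3-KO was above WT in all 4 pairs for 6 of the 8 genes (Klf4, Irf4, Pdcd1lg2, Arg1, Mgl2 and Clec10a), against 29.3% of all genes, and no gene of the 8 was called there with the replicate block. Calls over all genes lay between 17 and 450 after pneumonia and between 17 and 467 in controls when single libraries were left out. Averaged over states the count was also 0, against 2.01% of all genes (250 genes). At an unadjusted p under 0.05, 1 gene of the 8 passed after pneumonia (Pdcd1lg2), against 16.1% of all genes, and 5 passed in controls (Arg1, Clec10a, Klf4, Mgl2 and Pdcd1lg2), against 19.9%. All 5 had positive log2 fold changes. Xist was high in TLR3-KO controls 1 to 3 and in no WT control, so genotype and the Xist difference cannot be told apart there. The average over states uses these controls too. With TLR3-KO control 4 as the only control of its genotype, Mgl2 had -0.06 and Klf4 0.12. Arg1 then had 3.10, Clec10a 1.14 and Pdcd1lg2 0.72. That library was the highest of the series for Arg1 (7.57 CPM) and Pdcd1lg2 (13.2 CPM), so the values of these genes rest on it. The median over the 8 genes was 0.20 after pneumonia and 0.62 in controls, where all genes had medians of -0.01 and 0.04. The genotype comparison in controls and the pneumonia comparisons use the same control libraries.

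The difference of the pneumonia responses between TLR3-KO and WT gave no call among the 8 genes and 0 among all 12455 genes by edgeR (0.0%). At an unadjusted p under 0.05 there were 1 of the 8 (Pdcd1lg2) and 2217 of all genes. DESeq2 called 95 of all genes and none of the 8, and limma voom none at all. The median difference was -0.43 over the 8 genes and -0.03 over all genes.

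**Figure D3:**
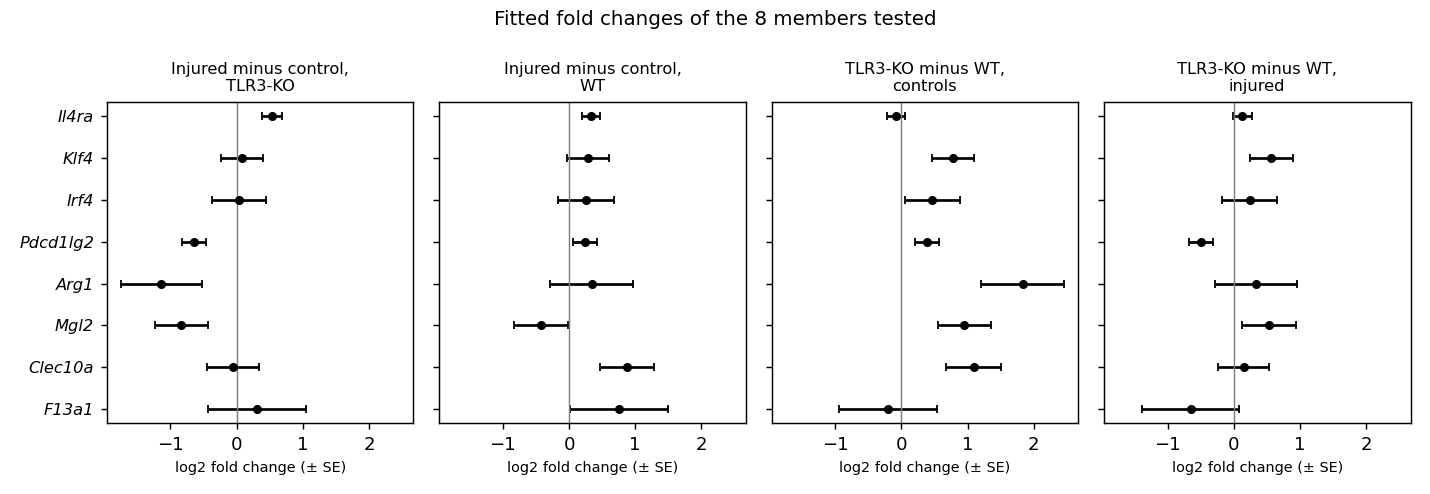
Log2 fold changes of the edgeR fit with bars of 1 SE (x axis) for the 8 genes tested (y axis) in the 4 comparisons between single groups, injured minus control and TLR3-KO minus WT. The narrow bars of Il4ra and Pdcd1lg2 (SE 0.14 to 0.18) contrast with those of Arg1 and F13a1 (SE 0.61 to 0.74), and no value in these 4 comparisons passed the adjusted threshold.

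Of 15 genes of interleukin-4 and interleukin-13 signalling, 12 were tested, and the ligand genes Il4 and Il13 reached at most 5 and 1 reads in any library, while Il13ra2, the decoy receptor, had none. The 6 genes with the highest mean CPM, a level not scaled for length, were the phosphatase gene Ptpn6 (606 CPM over all libraries), Stat6 (348 CPM), Jak1 (297 CPM), the common gamma chain Il2rg (152 CPM), Il13ra1, the second chain of the type II receptor (144 CPM), and Tyk2 (110 CPM). Stat6 was at 373 ± 23.6 CPM in TLR3-KO injured, 326 ± 52.5 CPM in TLR3-KO control, 324 ± 37.1 CPM in WT injured and 368 ± 51.8 CPM in WT control libraries (SD, n = 4 each), with no call. Il13ra1 was at 154 ± 6.64 CPM in TLR3-KO injured against 116 ± 18.2 CPM in TLR3-KO control libraries without overlap, but its log2 fold change of 0.34 did not pass (adjusted p = 0.106).

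One call was made among these 12 genes in the 7 comparisons, in that of pneumonia averaged over genotypes, where 2.34% of all genes were called. Irs2, an adaptor that links the receptor to phosphoinositide 3-kinase, had 33.7, 33.5, 34.1 and 34.7 CPM in TLR3-KO injured libraries, against 37.1, 47.1, 40.4 and 49.4 CPM in TLR3-KO controls. The WT libraries overlapped, at 35, 35.9, 39.5 and 42.1 CPM after pneumonia and 34.0, 38.2, 45.7 and 39.1 CPM in controls. Averaged over genotypes Irs2 fell by 0.28 on the log2 scale (SE 0.07, adjusted p = 0.0496), and the value was -0.33 to -0.25 in the 26 other fits, 19 of which did not call it, the replicate block among them (adjusted p = 0.0741). The median log2 fold change of the 12 genes was 0.28 for pneumonia in TLR3-KO, with 11 positive values, and -0.16 in WT, with 3 positive values, where all genes had -0.01 and 0.01. Of all genes, 48.5% had positive values in TLR3-KO and 51.3% in WT. For TLR3-KO against WT the median of the 12 genes was -0.02 after pneumonia and -0.30 in controls, where all genes had -0.01 and 0.04.

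Of 34 other genes linked to alternative activation 30 were tested. Those with the highest mean CPM, not scaled for length, were Chi3l3 (18200 CPM), the transglutaminase gene Tgm2 (1300 CPM), the interleukin-1 receptor antagonist gene Il1rn (784 CPM), the mannose receptor gene Mrc1 (581 CPM), the arginine transporter gene Slc7a2 (388 CPM) and the ribonuclease gene Ear2 (310 CPM). Chi3l3 had 19200 ± 1440 CPM in TLR3-KO injured, 18000 ± 2510 CPM in TLR3-KO control, 17900 ± 2890 CPM in WT injured and 17500 ± 2550 CPM in WT control libraries (SD, n = 4 each). None of these 6 was called in any comparison. For pneumonia, 1 of the 30 was called in TLR3-KO (Tfec, lower), against 1.54% of all genes, 1 in WT, against 0.0161%, and 1 averaged over genotypes, against 2.34% (Socs2, higher in both). For TLR3-KO against WT, none was called after pneumonia, against 0.618% of all genes, 1 in controls (Socs2, higher), against 0.699%, and 4 averaged over states (Socs2, Ptgs1 and Ear11 higher, Mmp13 lower), against 2.01%. Ear11, 1 of these 4, passed the filter only through TLR3-KO libraries, and its call is not read as a difference. The median log2 fold change of the 30 genes was -0.00 for pneumonia in TLR3-KO, -0.22 for pneumonia in WT, 0.13 between genotypes after pneumonia and 0.03 in controls, where all genes had -0.01, 0.01, -0.01 and 0.04.

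Socs2, a suppressor of cytokine signalling that STAT proteins induce, had 27.0, 28.9, 27.0 and 31.6 CPM in TLR3-KO injured libraries, against 20.6, 21.2, 18.6 and 19.1 CPM in TLR3-KO controls. In WT it had 33.2, 18.9, 22.4 and 20.9 CPM after pneumonia and 11.6, 10.6, 10.7 and 11.4 CPM in controls, so injured libraries and controls separated in both genotypes and WT controls were the lowest. It rose after pneumonia averaged over genotypes (log2 fold change 0.72, SE 0.11, adjusted p = 0.00655), a call kept in all 26 other fits. It also rose in WT (0.99, SE 0.15, adjusted p = 0.0471), with values of 0.78 to 1.07 in 17 other fits, 9 of which lost the call. TLR3-KO was above WT in controls (0.77, SE 0.15, adjusted p = 0.0344). In 18 other fits the value was 0.60 to 0.82, and 8 lost the call. Among these were the fits with controls 1 and 2 only (0.81, adjusted p = 0.0782) and 3 and 4 only (0.69, adjusted p = 0.249). With TLR3-KO control 4 as the only control of its genotype the value was 0.60. Averaged over states the value was 0.50 (SE 0.11, adjusted p = 0.0243), and 0.42 to 0.60 in 26 other fits, 8 of which lost the call. It was 0.42 with TLR3-KO control 4 as the only control of its genotype. Both comparisons between genotypes use TLR3-KO controls 1 to 3, where Xist was high, so genotype and Xist cannot be told apart there.

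Ptgs1, the gene of cyclooxygenase-1, had 24.2, 31.6, 23.7 and 19.7 CPM in TLR3-KO injured libraries, against 11.1, 5.25, 5.58 and 11.5 CPM in WT injured libraries. Its controls had 16.8, 20.8, 5.17 and 7.04 CPM in TLR3-KO, against 4.61, 4.52, 3.45 and 5.37 CPM in WT. TLR3-KO was higher averaged over states (log2 fold change 1.48, SE 0.28, adjusted p = 0.0134). With controls 3 and 4 only the value was 0.96 and the call was lost (adjusted p = 0.0941), as it was with TLR3-KO control 4 as the only control of its genotype (1.0, adjusted p = 0.113). Mmp13, the gene of a collagenase, averaged 2.38 ± 0.736 CPM in TLR3-KO injured against 4.97 ± 3.06 CPM in WT injured libraries, and 3.08 ± 1.79 CPM in TLR3-KO control against 8.21 ± 0.448 CPM in WT control libraries (SD, n = 4 each). It was lower in TLR3-KO averaged over states (-1.30, SE 0.30, adjusted p = 0.0328). In 26 other fits the value was -1.78 to -1.01, and 11 lost the call. Among these was the fit with controls 3 and 4 only (-1.01, adjusted p = 0.174). With TLR3-KO control 4 as the only control of its genotype the value was -1.11.

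Tfec, the gene of a transcription factor of macrophages that interleukin-4 induces, had 58.6, 53.0, 57.8 and 57.4 CPM in TLR3-KO injured libraries, against 65.0, 69.1, 96.9 and 109 CPM in TLR3-KO controls, where controls 3 and 4 were the highest. It fell after pneumonia in TLR3-KO (-0.64, SE 0.14, adjusted p = 0.0415). In 18 other fits the value was -0.90 to -0.35, and 11 lost the call. Among these were the replicate block (-0.62, adjusted p = 0.0697) and the fit with controls 1 and 2 only (-0.35, adjusted p = 0.136). With TLR3-KO control 4 as the only control of its genotype the value was -0.90. Ear11, at 0.317 CPM over all libraries, was as low as Retnla and passed the filter only through TLR3-KO libraries, so its call is not read as a difference. It had 0.282, 0.423, 0.303 and 0.0927 CPM in TLR3-KO injured and 0.853, 0.147, 0.0422 and 2.58 CPM in TLR3-KO control libraries, against at most 0.0945 CPM in WT injured and 0.0838 CPM in WT control libraries. The fit gave 3.31 averaged over states (adjusted p = 0.0353), and 12 of 25 other fits lost the call, among them the replicate block (adjusted p = 0.0546) and the fit without TLR3-KO control 4 (2.67).

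Summed marker lists differed among the TLR3-KO controls, and not all in the same direction. Monocyte markers, described below, summed to 933, 1320, 564 and 542 CPM in TLR3-KO controls 1 to 4. B-cell markers were lowest of these in TLR3-KO control 3, at 1.79 CPM. The 7 major histocompatibility complex class II genes, all above 1 CPM, summed to 691 to 1540 CPM in TLR3-KO injured libraries, against 2680, 1700, 7940 and 2730 CPM in TLR3-KO controls, and to 1010 to 1600 CPM in WT injured libraries, against 795 to 2210 CPM in WT controls. For interstitial macrophages 10 of 17 markers averaged at least 1 CPM, with Lyve1 and Cd163 below it, and Apoe gave 56.3% of the sum. That sum was 70.2 to 81.7 CPM in TLR3-KO injured libraries, against 149, 93.6, 176 and 102 CPM in TLR3-KO controls, and 66.0 to 85.2 CPM in WT injured libraries, against 58.7 to 71.4 CPM in WT controls. In both sums TLR3-KO control 3, the highest library for Mgl2 and Folr2, was the highest of all, and their part in the values of these genes was not tested.

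Lymphocyte markers were high in TLR3-KO control 4, though not there alone. B-cell markers, 4 of 6 at 1 CPM or more, summed to 40.7 CPM in that library and to 1.79 to 14.1 CPM in the other TLR3-KO controls. They summed to 5.10 to 9.77 CPM in TLR3-KO injured, 0.845 to 20.0 CPM in WT injured and 0.274 to 23.4 CPM in WT control libraries. Both WT maxima were in library 4. T-cell markers, 3 of 10 at 1 CPM or more, summed to 26.2 CPM in TLR3-KO control 4 and to 21.3 CPM in TLR3-KO control 3. They summed to 5.60 to 11.9 CPM in TLR3-KO injured, 5.85 to 11.7 CPM in WT injured and 3.43 to 18.4 CPM in WT control libraries, with 18.4 CPM in WT control 4. Of 9 markers of eosinophils, basophils and mast cells none averaged 1 CPM and Epx was at 0, and their sum was highest in TLR3-KO control 4, at 1.47 CPM. Erythroid markers, 2 of 5 at 1 CPM or more, summed to 493 CPM there and to 41.3 to 121 CPM in the other TLR3-KO controls, beside 73.1 to 199 CPM in TLR3-KO injured libraries. In WT they summed to 330 to 708 CPM after pneumonia and 11.4 to 151 CPM in controls. WT control 4 had 0 reads of Retnla, 1.29 CPM of Arg1 and 8.66 CPM of Pdcd1lg2. WT injured 4 had 1 read of Retnla, 0.567 CPM of Arg1 and 6.05 CPM of Pdcd1lg2. Whether these cells contributed to Arg1, Retnla or Pdcd1lg2 in TLR3-KO control 4 was not tested.

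Dendritic-cell markers, 10 of 14 at 1 CPM or more and 68.1% of them Ccl22, summed to 68.5 to 89.8 CPM in TLR3-KO injured libraries, against 103 to 145 CPM in TLR3-KO controls, so injured libraries lay below controls there, as for Pdcd1lg2. Ccl22 is also 1 of the 34 genes linked to alternative activation, and other markers of the list were ordered the other way in means, such as Zbtb46 (2.47 CPM in TLR3-KO injured, 1.63 CPM in TLR3-KO control libraries). In WT the ranges were 71.1 to 121 CPM after pneumonia and 81.9 to 113 CPM in controls. Neutrophil markers, 7 of 12 at 1 CPM or more with Elane at 0, summed to 117 to 203 CPM in TLR3-KO injured against 63.8 to 98.5 CPM in TLR3-KO control libraries, and to 82.7 to 290 CPM in WT injured against 47.5 to 84.7 CPM in WT control libraries. Monocyte markers, 9 of 12 at 1 CPM or more and 68.7% of them Fn1, summed to 1070 to 1740 CPM in TLR3-KO injured against 542 to 1320 CPM in TLR3-KO control libraries, and to 552 to 1320 CPM in WT injured against 471 to 1270 CPM in WT control libraries. A list of 9 NF-kB and immediate response genes, picked because earlier work on these data showed them to differ among the controls and all above 1 CPM, summed to 895 to 1380 CPM in TLR3-KO injured and 662 to 1600 CPM in TLR3-KO control libraries, and to 1200 to 1580 CPM in WT injured libraries, against 2600, 2310, 634 and 819 CPM in WT controls 1 to 4. The part of these lists in the Il4ra and Pdcd1lg2 values was not tested.

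**Figure D4:**
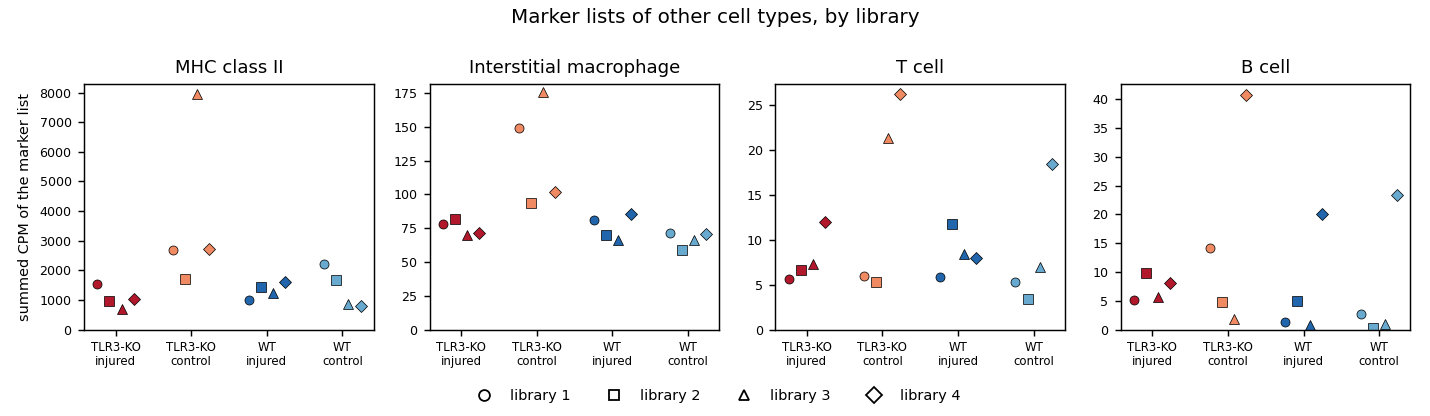
Summed CPM of the MHC class II, interstitial macrophage, T-cell and B-cell marker lists (y axes, linear, from 0) in each library of the 4 groups (x axis), with symbols for library number. TLR3-KO control 3 is the highest for MHC class II (7940 CPM) and interstitial macrophage markers (176 CPM), and TLR3-KO control 4 for T-cell (26.2 CPM) and B-cell markers (40.7 CPM).

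Among themselves the 8 tested genes did not share a common pattern over the 16 libraries. The highest Pearson correlation of log CPM between any pair was that of Arg1 and Pdcd1lg2 (0.66), and the lowest that of Il4ra and Pdcd1lg2 (-0.50). Among the 10565 genes of at least 1 CPM, those most like Il4ra were Sft2d2, Gbp7 and Atp8b4 (r = 0.94 each). Klf4 was most like Oxa1l and Csk (0.96 each) and Fam189a2 (0.95), and Pdcd1lg2 most like Surf2 (0.96), Fabp4 and Eif4a2 (0.94 each). Mgl2 was nearest to Sdcbp2 (0.90), Ank and Timd4 (0.88 each). For F13a1 the nearest was Gfm2, at 0.72. The points share libraries, depth and group differences, and the values are a description.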

How the data were processed

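Per the labels' protocols, RNA of lavage macrophages was made into TruSeq mRNA libraries and read from both ends, 50 bases each. Per the submitters' processing notes, FastQC 0.11.3, TopHat2 2.0.13, Bowtie2 2.2.1, Cufflinks and Cuffdiff 2.1.1 were used with mm10. The deposited table holds raw counts, 1 row a gene symbol, and its name refers to HTSeq. The HTSeq version, annotation and strand setting are not given in the sources used here.

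The 16 columns were matched to samples by title, and the series text counts 15. Libraries of a group differed by a chi-square per degree of freedom of 8.04 to 303, so none was a copy. Genes were kept by filterByExpr (minimum count 10, 4 groups): 12455 of 23159 symbols were tested and 10704 removed. TMM factors were 0.896 to 1.07. All 16 libraries entered a quasi-likelihood model of the 4 group means in edgeR 4.0.16 (R 4.3.3), the biological coefficient of variation was 0.238, and calls were made at a Benjamini-Hochberg adjusted p under 0.05 over the 12455 genes. CPM use raw library totals, fold changes come from the fit, and the SE is the log2 fold change divided by the square root of F. Intervals (95%, exact Poisson) and the limit for 0 reads (3 counts) cover counting error only. Correlations used log2(CPM + 0.5).

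The 10 genes, the pathway and marker lists and the tests were chosen with earlier results of these data known. All 10 genes are named, and of the pathway lists every called gene and the 6 of highest level, with 8 list symbols matched through synonyms. Positions and exon lengths came from GENCODE M21 (mm10), promoters from RefSeq (GRCm38.p6).

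Replicate numbers come from the titles. Departures from group means at the same number correlated at 0.60 to 0.63 between control genotypes (for 6 of 8 libraries the own number gave the best match), and the block is given beside the calls it ended, those of Il4ra, Irs2, Tfec and Ear11. They correlated at -0.14 to 0.39 for pneumonia in TLR3-KO, at -0.36 to -0.13 in WT and at -0.48 to 0.12 between genotypes after pneumonia. Alternatives were RLE size factors, DESeq2 1.42.0, voom in limma 3.58.1, 2 other filters, the block, subsets of controls, each library left out and, chosen after seeing the data, a robust quasi-likelihood fit. Where a fit left 1 library in a group, that library is assumed to vary like the others. Cuffdiff values were not used here. Tables used scipy 1.17.1, numpy 2.4.6 and pandas 2.3.3 in python 3.11.15, figures matplotlib 3.10.9.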

Additional observations from a re-analysis of the deposited data

Results flagged for a closer look

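In 3 of 40 combinations of gene and group, the highest library stood apart from the other 3 of its group, with a gap to the next library above Dixon's 95% critical value. About 1 in 20 would do so by chance. Pdcd1lg2 reached 13.2 CPM in TLR3-KO control 4 (gap 0.901 of the range), Folr2 reached 0.611 CPM in TLR3-KO control 3 (0.94), and Folr2 reached 0.148 CPM, from 6 reads, in WT control 3 (0.911).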

How the results depend on the processing

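The 39 fold changes were estimated again in the alternative fits, which share libraries, and this gave 702 values. Of these, 646 kept direction and side of the threshold, 15 lost and 11 gained a call, and 30 reversed, in 17 of the 39 fold changes. The cause was not tested. DESeq2 called 2 for pneumonia in TLR3-KO (Il4ra, Pdcd1lg2) and 1 for genotype in controls (Arg1). Controls 3 and 4 alone gave 3 calls for pneumonia in TLR3-KO (with Arg1) and 2 averaged over genotypes (Il4ra, Klf4). Controls 1 and 2 alone gave 1 averaged over genotypes (Mgl2 in place of Il4ra) and 1 for genotype averaged over states (Klf4). TLR3-KO control 4 as the only control of its genotype gave 1 for genotype in controls (Retnla, which passes the filter there only through that library and is not read as a difference) and 0 averaged over genotypes, and the replicate block gave 0 there and changed no other call of the 8 genes. Leaving out each library gave 0 to 2 calls for pneumonia in TLR3-KO (2 without TLR3-KO control 2), 0 to 1 for genotype after pneumonia (1 without WT injured 4) and 0 to 1 for pneumonia averaged over genotypes. A filter of at least 5 CPM in 3 libraries kept 3 of the 10 genes.

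None of the reversed values was called. With controls 1 and 2 only, pneumonia in TLR3-KO gave -0.22 for Irf4, -0.39 for Klf4 and 0.26 for Arg1. With controls 3 and 4 only, Clec10a had 0.18 there, Mgl2 0.44 and Arg1 -0.21 in WT, and F13a1 0.03 between control genotypes. With TLR3-KO control 4 alone, pneumonia gave -0.23 for Irf4, 0.17 for Mgl2 and -0.17 for F13a1, and genotype in controls -0.06 for Mgl2 and 0.28 for F13a1. Voom gave F13a1 -0.25 for pneumonia in WT and 0.54 for genotype after pneumonia. Without 1 library, values spanned 0 for pneumonia in WT in Irf4 (-0.04 to 0.53), Klf4 (-0.00 to 0.45) and F13a1 (-0.11 to 1.19), in TLR3-KO in Irf4 (-0.23 to 0.20), Klf4 (-0.11 to 0.35) and Clec10a (-0.35 to 0.10), for genotype in controls in Il4ra (-0.16 to 0.03) and F13a1 (-0.50 to 0.24), and after pneumonia in Clec10a (-0.15 to 0.28), Arg1 (-0.02 to 0.59) and F13a1 (-1.05 to 0.18). The robust fit left the counts of the 8 genes as they were and called 136 genes for pneumonia in TLR3-KO. Over all libraries Folr2 had 73 reads, Retnla 246 and Clec10a 309, the fewest of the 10 genes.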
